A study of Homo sapiens with 12 samples.

Results

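The 10 genes described here set how readily a cell is killed through its surface death receptors. They are the ligand gene TNFSF10, the receptor genes TNFRSF10A, TNFRSF10B and FAS, the inhibitor genes CFLAR, BIRC2, BIRC3 and XIAP, and the adaptor genes TRAF1 and TRAF2. They were chosen by gene symbol from a table of 51838 genes. All 10 matched a single row, and all 10 passed the filter on low counts that left 28141 genes for testing. RNA was sequenced from the human breast cancer cell lines HCC70 and MDA-MB-231, in a study that asked which genes the glucocorticoid receptor and STAT3 control. The groups were HCC70 with 100 nM dexamethasone for 4 h, HCC70 with an equal volume of ethanol, MDA-MB-231 with 100 nM dexamethasone for 4 h and MDA-MB-231 with ethanol, with 3 libraries in each. Dexamethasone is a synthetic glucocorticoid, and ethanol was its vehicle. The culture medium was RPMI for HCC70 and DMEM for MDA-MB-231, and in comparisons between them the effects of line and of medium cannot be told apart.

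TNFSF10 encodes TRAIL, a ligand that binds the receptors made from TNFRSF10A and TNFRSF10B; FAS is the receptor of a related ligand. A bound receptor recruits an adaptor and an initiator caspase, and CFLAR encodes c-FLIP, a caspase-like protein that occupies the same complex without being able to complete the cascade. XIAP binds and blocks active caspases, whereas BIRC2 and BIRC3 encode cIAP ubiquitin ligases that are held at receptor complexes by TRAF1 and TRAF2 and direct signalling towards NF-kB.

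Total counts per library ran from 106345287 to 123218973. The lowest count of any of the 10 genes in a library was 277 and the highest 35867. Levels are given as counts per 1e6 counts (CPM), scaled between libraries by the TMM method, and as mean ± SD over 3 libraries. Whether the libraries of a group stem from separate cultures is not stated in the labels; the p-values therefore rest on a spread between libraries that may be technical. FKBP5, a standard glucocorticoid-induced gene, was 6.2-fold higher with dexamethasone in HCC70 and 19.9-fold higher in MDA-MB-231 (adjusted p = 9.35e-11 and 2.05e-13). Both lines are labelled basal-like. The basal keratin gene KRT5 averaged 2600 ± 130 CPM in HCC70 vehicle and 0.804 ± 0.44 CPM in MDA-MB-231 vehicle (SD, n = 3 each), where KRT14 and KRT17 were also near 0. EGFR, also listed as a basal marker, averaged 328 ± 8 CPM in HCC70 vehicle and 356 ± 14 CPM in MDA-MB-231 vehicle. The MDA-MB-231 libraries vehicle 1 and dexamethasone 2 stood apart from the others of their groups (root mean square deviation 0.197 and 0.186 on the log2 scale, against 0.102 to 0.169 in the other libraries of the line). Their deviations from their group means were correlated across genes (0.712), as were those of dexamethasone 1 and vehicle 3 of that line (0.617). Levels also followed GC content, by the rank correlation across genes of GC content with a library's deviation from the mean of its line. Within HCC70 it was 0.384 to 0.523 in the dexamethasone libraries and -0.624 to -0.163 in the vehicle libraries. In MDA-MB-231 the same correlation was -0.536, 0.28 and -0.521 in the dexamethasone libraries and 0.701, 0.174 and -0.249 in the vehicle libraries. The mean of a line covers both treatments, so these values also hold any response to dexamethasone. Calls that end without the 2 libraries or with a correction for GC content and gene length are given beside the result. So are values of tests that passed and that then move by over 1.5 times. Values of tests that did not pass also moved, and not all of these are given. Of the 10 genes, BIRC3 lay at percentile 1.3 of GC content and TRAF2 at percentile 89.5.

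In HCC70, 6 of the 10 genes passed the test for dexamethasone against vehicle (edgeR quasi-likelihood test, Benjamini-Hochberg adjusted p under 0.05). BIRC3, BIRC2, TNFRSF10A, TNFRSF10B and CFLAR rose, and TNFSF10 fell. Over all genes tested, 3.96% passed, 2.55% higher and 1.4% lower. In MDA-MB-231, 7 of the 10 passed: BIRC3, CFLAR and BIRC2 rose, and TNFSF10, TRAF1, TNFRSF10B and TRAF2 fell. The background there was 14.6%, with 6.65% higher and 7.96% lower. The median log2 fold change of the 10 genes was 0.20 in HCC70 and -0.085 in MDA-MB-231, against -0.01 over all genes in either line. The genes were chosen with these results known, so the shares are a description. Without the 2 MDA-MB-231 libraries that stood apart both counts were the same, while the calls over all genes went up to 3867, against 1114 with them, in HCC70 and to 5785, against 4110, in MDA-MB-231, so the background shares are higher in that fit.

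**Figure D1:**
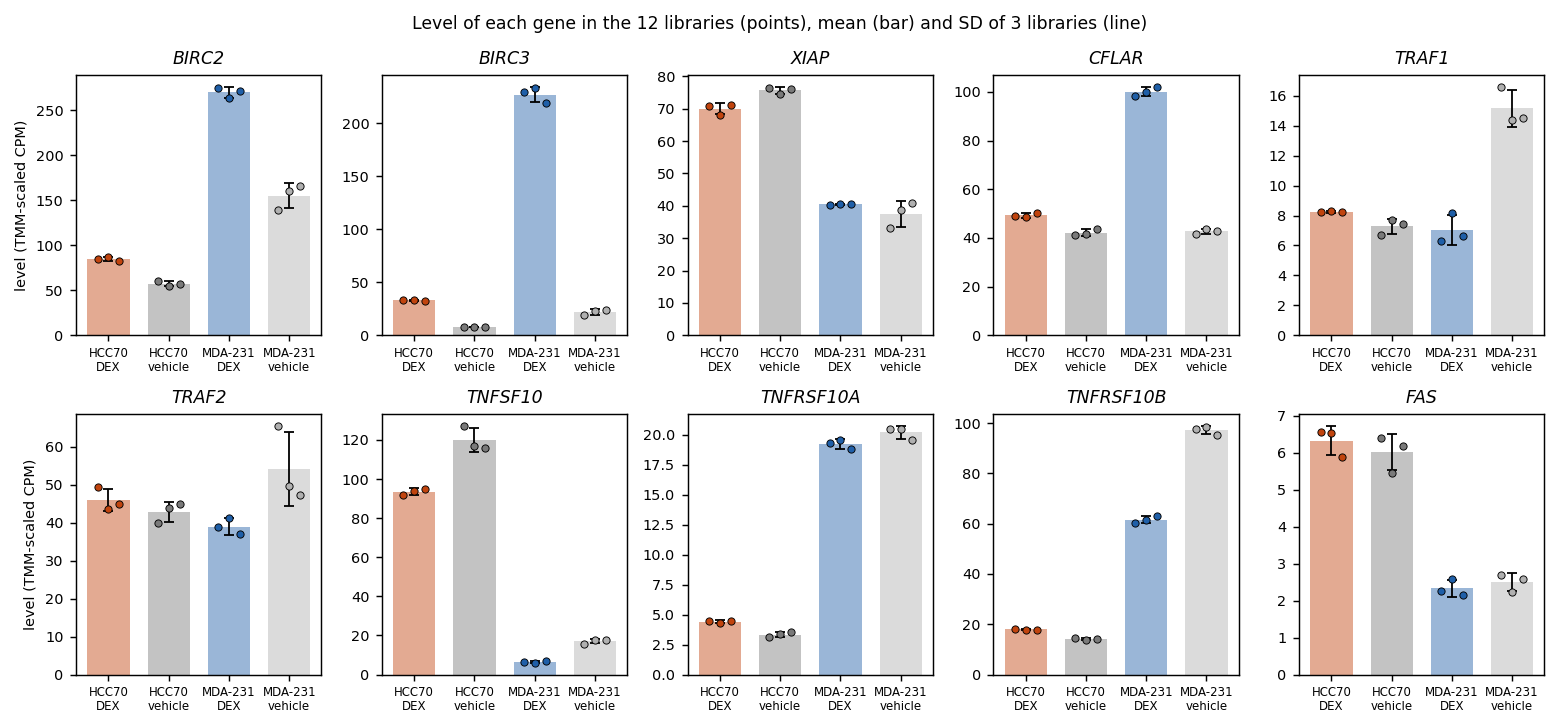
Level of each of the 10 genes, in TMM-scaled CPM on a linear axis from 0, in the 12 libraries (points); bars are means and lines the SD of the 3 libraries of each group. BIRC3 reached 219 to 233 CPM in the dexamethasone libraries of MDA-MB-231, against 19.2 to 24.1 CPM with vehicle, whereas TNFSF10 was highest in HCC70 vehicle, at 116 to 127 CPM.

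TNFSF10, the TRAIL gene, fell with dexamethasone in both lines. Its levels were 91.6, 93.8 and 95.1 CPM in the dexamethasone libraries of HCC70, against 127, 117 and 116 CPM with vehicle. Every treated library lay below every vehicle library, and the log2 fold change was -0.36 ± 0.065 (SE, adjusted p = 0.00579), a 1.28-fold lower level. The call ended without HCC70 dexamethasone library 1 (adjusted p = 0.0537), and with a correction for GC content and gene length the value was -0.24 (adjusted p = 0.00192). In MDA-MB-231 the levels were 6.49, 5.98 and 6.94 CPM with dexamethasone, against 15.8, 17.6 and 17.5 CPM with vehicle. These groups did not overlap either. The log2 fold change was -1.39 ± 0.069 (adjusted p = 6.91e-09), which is 2.62-fold lower. RNA of whole cultures was measured, so fewer cells that express a gene and less RNA per cell cannot be told apart, here and in what follows.

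Promoter windows are shown only where they held a match to an NF-kB type or interferon response type pattern. Those were windows of TNFSF10, BIRC3 and CFLAR, so the match was part of the choice. TNFSF10 is the only ligand gene of the 10, and its RNA fell in both lines. The window runs from 250 bases before to 50 after the start annotated by RefSeq (GRCh38.p14, chr3:172523381-172523680, minus strand), printed 5′ to 3′ along the gene. Capitals mark a match to an interferon response type repeat, GAAANNGAAA, here on the opposite strand and 187 bases before the start. Of 35116 RefSeq promoter windows of this length, 3.57% hold such a match on either strand. A match describes letters and shows no binding.
TNFSF10: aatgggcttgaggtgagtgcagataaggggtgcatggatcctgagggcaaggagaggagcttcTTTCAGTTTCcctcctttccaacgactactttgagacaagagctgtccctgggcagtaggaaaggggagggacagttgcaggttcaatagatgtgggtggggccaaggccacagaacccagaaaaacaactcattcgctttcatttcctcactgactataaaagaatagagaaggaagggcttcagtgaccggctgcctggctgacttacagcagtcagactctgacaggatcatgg

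The receptor genes moved differently from each other and between the lines. TNFRSF10A, a TRAIL receptor gene, had 4.49, 4.31 and 4.45 CPM with dexamethasone in HCC70, against 3.10, 3.37 and 3.54 CPM with vehicle. The treated libraries were all higher, with a log2 fold change of 0.41 ± 0.07 (adjusted p = 0.00425). In MDA-MB-231 the same gene had 19.3, 19.6 and 18.8 CPM with dexamethasone, against 20.5, 20.5 and 19.6 CPM with vehicle. These ranges touched, and the gene did not pass the test: its log2 fold change was -0.0705, with a 95% interval of -0.21 to 0.07 (adjusted p = 0.5). Exons of TNFRSF10A overlap genes on the opposite strand over 16.6% of their length (GENCODE), and the libraries carried no strand, so reads from there cannot be told apart; 12.4% of its 50-base stretches also occur in annotated transcripts of other genes.

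TNFRSF10B, the other TRAIL receptor gene with a death domain, changed in opposite directions in the lines. In HCC70 its levels were 18.3, 17.9 and 17.9 CPM with dexamethasone, against 14.6, 13.8 and 14.2 CPM with vehicle. All treated libraries were above all vehicle libraries, by 0.34 ± 0.05 on the log2 scale (adjusted p = 0.00114). In MDA-MB-231 it had 60.4, 61.3 and 63.1 CPM with dexamethasone, against 97.5, 98.5 and 95.4 CPM with vehicle. Here every treated library was below every vehicle library, with a log2 fold change of -0.66 ± 0.049 (adjusted p = 3.9e-07), 1.58-fold lower. Both directions held in all 24 alternatives, over which the adjusted p reached at most 0.0333 in HCC70 and 0.000322 in MDA-MB-231. Exons of TNFRSF10B overlap RHOBTB2 on the opposite strand over 1.3% of their length. RHOBTB2 averaged 9.25 ± 0.87 CPM with dexamethasone and 7.01 ± 0.092 CPM with vehicle in HCC70. In MDA-MB-231 it averaged 24.4 ± 3.2 CPM with dexamethasone and 30.2 ± 6 CPM with vehicle. The part of such reads in the result was not tested.

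FAS, whose product binds FAS ligand, did not pass in either line. It had 6.57, 6.53 and 5.88 CPM with dexamethasone in HCC70, against 6.39, 5.46 and 6.17 CPM with vehicle, and the groups overlapped. The 95% interval of its log2 fold change was -0.15 to 0.30 (adjusted p = 0.738). In MDA-MB-231 FAS had 2.27, 2.58 and 2.14 CPM with dexamethasone, against 2.70, 2.22 and 2.57 CPM with vehicle. The groups overlapped here too, and the interval was -0.34 to 0.14 (adjusted p = 0.597). The intervals bound the changes that these libraries leave possible. Exons of FAS overlap ACTA2 on the opposite strand over 8.93% of their length, and ACTA2 averaged 0.654 ± 0.15 CPM with dexamethasone and 0.698 ± 0.073 CPM with vehicle in HCC70, and 2.81 ± 0.45 CPM with dexamethasone and 2.82 ± 0.12 CPM with vehicle in MDA-MB-231.

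Among the inhibitors, BIRC3 had the largest change of the 10 genes in both lines. It encodes cIAP2, a ubiquitin ligase induced by NF-kB in many cell types. In HCC70 its levels were 33.0, 33.3 and 32.5 CPM with dexamethasone, against 8.06, 7.38 and 7.70 CPM with vehicle. The groups were far apart relative to their spread, with a log2 fold change of 2.09 ± 0.078 (adjusted p = 3.25e-09), or 4.27-fold. In MDA-MB-231 BIRC3 had 229, 233 and 219 CPM with dexamethasone, against 19.2, 22.8 and 24.1 CPM with vehicle. The log2 fold change was 3.36 ± 0.08 (adjusted p = 2.51e-12), or 10.3-fold, and 3.27 without the 2 libraries that stood apart. With the correction for GC content and length it was 2.17 in HCC70 and 3.30 in MDA-MB-231. BIRC3 shares 11 of its 7648 annotated 50-base stretches with its neighbour BIRC2 on chromosome 11, 0.144%.

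The BIRC3 promoter is shown for the same window and source (GRCh38.p14, chr11:102317234-102317533, plus strand). It was likewise shown for its match, and its gene changed most. Capitals mark a match to an NF-kB type site, GGGNNNTTCC, on the opposite strand and 199 bases before the start. A match on either strand occurs in 6.52% of the 35116 windows.
BIRC3: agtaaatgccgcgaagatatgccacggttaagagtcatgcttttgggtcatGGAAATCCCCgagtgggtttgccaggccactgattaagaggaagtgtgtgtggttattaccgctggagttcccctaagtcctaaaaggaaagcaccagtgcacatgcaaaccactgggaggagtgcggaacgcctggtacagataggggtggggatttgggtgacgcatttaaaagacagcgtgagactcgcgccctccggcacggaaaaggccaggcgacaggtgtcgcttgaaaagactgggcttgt

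BIRC2, which encodes the closely related ligase cIAP1, rose in both lines by smaller amounts. It had 84.7, 87.1 and 82.0 CPM with dexamethasone in HCC70, against 60.3, 54.5 and 56.9 CPM with vehicle. The groups did not overlap, and the log2 fold change was 0.56 ± 0.069 (adjusted p = 0.000252), or 1.48-fold. In MDA-MB-231 BIRC2 had 275, 263 and 271 CPM with dexamethasone, against 139, 160 and 166 CPM with vehicle. All treated libraries were again higher, by 0.80 ± 0.069 on the log2 scale (adjusted p = 2.04e-06), or 1.74-fold. Per kilobase of exon, the level of BIRC2 was 4.26 ± 0.075 times that of BIRC3 with dexamethasone and 12.3 ± 0.088 times with vehicle in HCC70 (SD, n = 3 each). The ratio was 1.97 ± 0.089 with dexamethasone and 11.7 ± 0.29 with vehicle in MDA-MB-231.

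CFLAR rose clearly in MDA-MB-231 and by a small margin in HCC70. In MDA-MB-231 its levels were 98.2, 100 and 102 CPM with dexamethasone, against 41.4, 43.7 and 42.8 CPM with vehicle. The log2 fold change was 1.23 ± 0.051 (adjusted p = 9.57e-10), or 2.35-fold, and ranged from 1.21 to 1.26 over the 24 alternatives. In HCC70 CFLAR had 48.9, 48.5 and 50.3 CPM with dexamethasone, against 41.2, 41.7 and 43.7 CPM with vehicle. All treated libraries were higher there as well, with a log2 fold change of 0.22 ± 0.051 (adjusted p = 0.0244). That call ended when any of 5 of the 6 HCC70 libraries was left out, all but vehicle 3 (adjusted p = 0.0755 to 0.129), with upper quartile scaling (adjusted p = 0.0521) and with scaling by library size alone (0.14, adjusted p = 0.239). The call also ended with the replicate number of the libraries as a block in the fit (adjusted p = 0.0582). Exons of CFLAR overlap other annotated genes over 12% of their length, and reads without strand cannot be assigned between them; the part of such reads in the result was not tested. The overlapping pseudogene IMPDH1P10 had 8.94 ± 0.54 CPM with dexamethasone and 6.55 ± 0.50 CPM with vehicle in HCC70, and 15.4 ± 1.8 CPM with dexamethasone and 7.32 ± 0.92 CPM with vehicle in MDA-MB-231. The overlapping antisense gene CFLAR-AS1 had 4.86 ± 0.20 CPM with dexamethasone and 4.19 ± 0.31 CPM with vehicle in HCC70, and 7.41 ± 0.14 CPM with dexamethasone and 3.10 ± 0.34 CPM with vehicle in MDA-MB-231. Both thus ran in the direction of CFLAR. Of the 50-base stretches of CFLAR, 14.1% also occur in annotated transcripts of other genes.

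Of 4 annotated CFLAR promoter windows, 1 held an NF-kB type match and is shown for comparison with that of BIRC3 (GRCh38.p14, chr2:201118466-201118765, plus strand). Capitals mark the match, 97 bases before the start on the strand of the gene.
CFLAR: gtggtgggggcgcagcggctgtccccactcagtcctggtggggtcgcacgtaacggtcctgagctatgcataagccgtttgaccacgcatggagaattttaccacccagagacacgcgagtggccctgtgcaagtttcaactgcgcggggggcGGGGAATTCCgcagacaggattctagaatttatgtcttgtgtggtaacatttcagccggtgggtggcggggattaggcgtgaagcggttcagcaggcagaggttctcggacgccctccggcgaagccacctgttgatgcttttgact
The palindromic glucocorticoid receptor element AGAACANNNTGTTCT was in none of the 18 promoter windows of the 8 genes searched, and in 1 of all 35116 (0.00285%). Its single hexamer AGAACA was in another CFLAR window, which held 3 copies, and in windows of FAS, TRAF1 and XIAP, which have 3 windows each. Of all windows 14.8% held the hexamer, a share of windows that cannot be set against a number of genes. None of the 4 patterns was in the windows of BIRC2 and TRAF2. Absence of these letters from a window of this length says nothing about binding by the receptor.

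XIAP did not pass in either line. It had 70.7, 68.1 and 71.2 CPM with dexamethasone in HCC70, against 76.5, 74.4 and 76.0 CPM with vehicle. The treated libraries were all lower, but the log2 fold change of -0.11 had a 95% interval of -0.26 to 0.03 (adjusted p = 0.402). In MDA-MB-231 XIAP had 40.3, 40.6 and 40.5 CPM with dexamethasone, against 33.1, 38.8 and 40.8 CPM with vehicle. The groups overlapped, with an interval of -0.04 to 0.25 (adjusted p = 0.308).

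The adaptor genes fell in MDA-MB-231 and did not pass in HCC70. TRAF1, itself an NF-kB-induced partner of the cIAP proteins, had 6.31, 8.18 and 6.65 CPM with dexamethasone in MDA-MB-231, against 16.6, 14.4 and 14.5 CPM with vehicle. The groups were well separated, and the level fell by 1.10 ± 0.099 on the log2 scale (adjusted p = 2.76e-06), 2.15-fold. In HCC70 TRAF1 had 8.21, 8.29 and 8.22 CPM with dexamethasone, against 6.73, 7.71 and 7.41 CPM with vehicle. The treated libraries were all higher, but the 95% interval of the log2 fold change was -0.04 to 0.39 (adjusted p = 0.357).

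TRAF2 links TNF receptor complexes to the cIAP ligases. It had 38.8, 41.2 and 36.9 CPM with dexamethasone in MDA-MB-231, against 65.4, 49.7 and 47.3 CPM with vehicle. The groups did not overlap, and vehicle library 1 was the highest by a wide margin. The log2 fold change was -0.47 ± 0.1 (adjusted p = 0.00807), and -0.31 without that library (adjusted p = 0.0121). It was -0.23 after the correction for GC content and length (adjusted p = 0.00611), and the call ended when only the MDA-MB-231 groups were fitted (adjusted p = 0.0802). In HCC70 TRAF2 had 49.3, 43.6 and 44.9 CPM with dexamethasone, against 39.9, 43.9 and 44.9 CPM with vehicle. Those groups overlapped (log2 interval -0.13 to 0.33, adjusted p = 0.648).

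**Figure D2:**
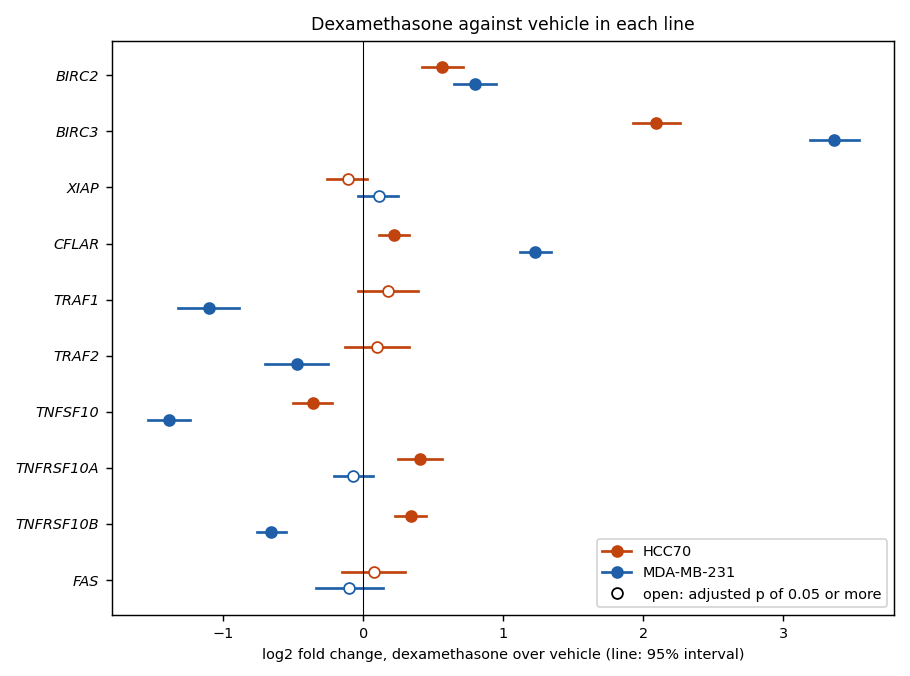
Log2 fold change of dexamethasone over vehicle for each gene, with its 95% interval, in HCC70 and MDA-MB-231; filled points passed at an adjusted p under 0.05. BIRC2, BIRC3 and CFLAR lie right of 0 in both lines and TNFSF10 left of 0 in both, whereas TNFRSF10B is at 0.34 in HCC70 and -0.66 in MDA-MB-231.

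The difference of the responses, HCC70 minus MDA-MB-231, was tested as an interaction term. It passed for 7 of the 10 genes, 5 with a positive and 2 with a negative difference, against 12.1% of all genes tested (6.96% higher and 5.09% lower). The negative differences were those of BIRC3 (-1.27 ± 0.11, adjusted p = 3.56e-06) and CFLAR (-1.01 ± 0.072, adjusted p = 7.27e-07), which rose more in MDA-MB-231. TNFSF10 fell less in HCC70, with a difference of 1.03 ± 0.095 (adjusted p = 9.64e-06). TNFRSF10B, whose responses had opposite signs, differed by 1.00 ± 0.07 (adjusted p = 6.91e-07). TNFRSF10A, which rose in HCC70 alone by the test, differed by 0.48 ± 0.095 (adjusted p = 0.00619). For TRAF1 the difference was 1.28 ± 0.14 (adjusted p = 4.63e-05), and for TRAF2 it was 0.57 ± 0.15 (adjusted p = 0.026). The TRAF2 difference did not pass when single libraries were left out in 6 of 12 cases (HCC70 dexamethasone 1 and 3, HCC70 vehicle 1 and 2, MDA-MB-231 dexamethasone 1 and 3; adjusted p = 0.0515 to 0.0778). With the correction for GC content and length it was 0.17 (adjusted p = 0.162). The difference did not pass for BIRC2 (-0.23, 95% interval -0.44 to -0.02, adjusted p = 0.125; -0.0419 with that correction), XIAP (-0.43 to -0.01, adjusted p = 0.14) and FAS (-0.15 to 0.50, adjusted p = 0.476). XIAP passed when MDA-MB-231 vehicle library 3 was left out (adjusted p = 0.0411). Its difference was -0.22 in the main fit and -0.0877 with the correction for GC content and length (adjusted p = 0.366). Without the 2 libraries that stood apart it was -0.152 (adjusted p = 0.127).

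In vehicle, HCC70 and MDA-MB-231 differed in 9 of the 10 genes, 3 higher and 6 lower in HCC70. This share is close to the background of 79.2% over all genes tested (39.2% higher and 40% lower), so it is no result about these genes. The vehicle libraries are those of the dexamethasone comparisons, so the values are not independent of the responses. TNFSF10 was 7.08-fold higher in HCC70 vehicle, at 120 ± 6.0 CPM, than in MDA-MB-231 vehicle, at 17.0 ± 1.0 CPM (SD, n = 3 each; adjusted p = 8.13e-14). FAS was 2.4-fold higher in HCC70, at 6.0 ± 0.48 CPM against 2.5 ± 0.25 CPM in MDA-MB-231 (adjusted p = 6.06e-08). XIAP was 2.01-fold higher, at 75.6 ± 1.1 CPM in HCC70 against 37.6 ± 4.0 CPM in MDA-MB-231 (adjusted p = 4.91e-09).

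The TRAIL receptor genes ran the other way from their ligand. TNFRSF10B was 6.83-fold lower in HCC70 vehicle, at 14.2 ± 0.37 CPM, than in MDA-MB-231 vehicle, at 97.1 ± 1.6 CPM (adjusted p = 5.38e-15). TNFRSF10A was 6.06-fold lower, at 3.33 ± 0.22 CPM in HCC70 against 20.2 ± 0.51 CPM in MDA-MB-231 (adjusted p = 1.85e-13). Per kilobase of exon, the level of TNFSF10 was 7.71 ± 0.24 times that of TNFRSF10B in HCC70 with dexamethasone and 12.5 ± 0.42 times with vehicle. In MDA-MB-231 the ratio was 0.156 ± 0.0096 with dexamethasone and 0.259 ± 0.017 with vehicle.

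BIRC3, BIRC2, TRAF1 and TRAF2 were also lower in HCC70 vehicle than in MDA-MB-231 vehicle, by log2 fold changes of -1.51, -1.44, -1.06 and -0.34 (adjusted p = 1.94e-10, 1.18e-10, 1.78e-07 and 0.00942). The TRAF2 value was -0.20 without MDA-MB-231 vehicle library 1 (adjusted p = 0.0223) and -0.57 with the correction for GC content and length. Without both libraries that stood apart it was -0.201 (adjusted p = 0.0131). CFLAR averaged 42.2 ± 1.3 CPM in HCC70 vehicle and 42.6 ± 1.1 CPM in MDA-MB-231 vehicle. Its groups overlapped, and the 95% interval of the log2 difference was -0.12 to 0.09 (adjusted p = 0.781).

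**Figure D3:**
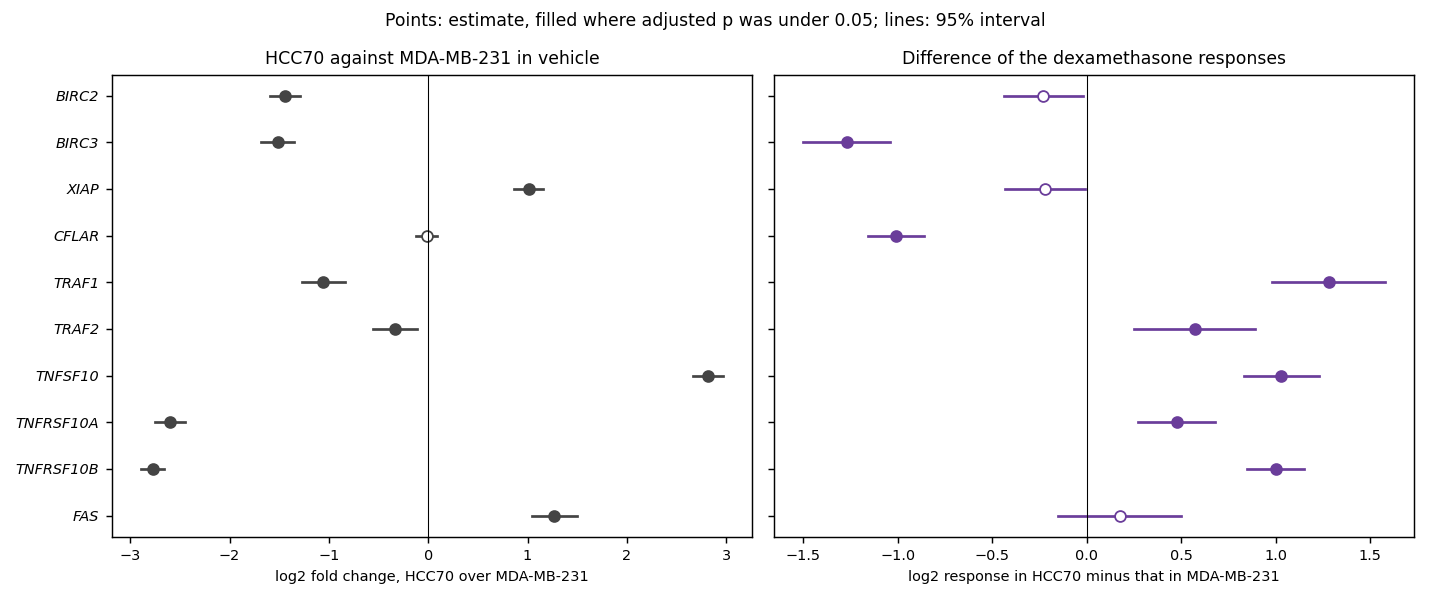
Left, log2 fold change of HCC70 over MDA-MB-231 in vehicle; right, log2 response to dexamethasone in HCC70 minus that in MDA-MB-231. Lines are 95% intervals and filled points passed at an adjusted p under 0.05; CFLAR sits at -0.0158 on the left and at -1.01 on the right.

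Levels of different genes were compared per kilobase of annotated exon (CPM per kb). The SD here is the spread between libraries and covers no error from exon length or GC content. The order of the genes was not tested. With vehicle in HCC70, TNFSF10 was the highest of the 10, at 34.6 ± 1.7 CPM per kb. BIRC2 at 12.6 ± 0.64 and TRAF2 at 11.7 ± 0.72 CPM per kb followed and did not differ beyond their spread. TRAF1 at 1.13 ± 0.078, TNFRSF10A at 1.13 ± 0.075 and BIRC3 at 1.03 ± 0.045 CPM per kb were the lowest, also within or close to their spread. With dexamethasone in HCC70, BIRC3 stood at 4.38 ± 0.056 CPM per kb, above TNFRSF10B at 3.49 ± 0.047 CPM per kb. In MDA-MB-231 with dexamethasone, BIRC2 at 59.5 ± 1.3 and BIRC3 at 30.2 ± 0.95 CPM per kb were the highest of the 10. With vehicle in MDA-MB-231, BIRC2 had 34.2 ± 3.1, TNFRSF10B 18.8 ± 0.31 and BIRC3 2.93 ± 0.34 CPM per kb. FAS was the lowest in that line, at 0.548 ± 0.052 CPM per kb with dexamethasone and 0.587 ± 0.059 CPM per kb with vehicle.

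Among 14354 genes averaging at least 1 on the log2 CPM scale, those most like BIRC3 over the 12 libraries were FKBP5, ANGPTL4 and MT2A. Likeness was the root mean square difference of log2 CPM after centring each gene, here 0.502, 0.55 and 0.641. Their log2 fold changes with dexamethasone were 2.63, 1.49 and 0.67 in HCC70, and 4.32, 2.79 and 2.32 in MDA-MB-231. Most like TNFSF10 were CISH, MCC and BHLHE41, at 0.164, 0.188 and 0.205. These had log2 fold changes of -0.29, -0.08 and -0.03 in HCC70, and -1.33, -1.07 and -1.14 in MDA-MB-231. The line difference in vehicle enters this measure along with the response.

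Other genes of the pathway were read from 4 lists. Of 13 tested genes for other death ligands, receptors and decoys, 1 passed with dexamethasone in HCC70, lower (7.69% of the list against 3.96% of all genes; median log2 fold change -0.011). In MDA-MB-231, 1 rose and 7 fell (61.5% against 14.6% of all genes; median -0.53). In HCC70, DESeq2 called 2 higher and 1 lower, as did the fit of only the HCC70 groups, and limma voom called 1 lower. Under the strict filter, which tests fewer genes, 0 passed there. Without the 2 libraries that stood apart, 4 passed in HCC70, 3 of them higher, and 9 fell in MDA-MB-231. That fit called 3867 and 5785 genes. In HCC70 the gene that fell was TNFRSF11B, a soluble decoy receptor for TRAIL and RANKL, at 0.682 ± 0.12 CPM with dexamethasone and 1.19 ± 0.089 CPM with vehicle (log2 -0.80 ± 0.15, adjusted p = 0.00692). In MDA-MB-231, TNFRSF1A, the main TNF receptor gene, rose to 205 ± 8.5 CPM with dexamethasone, against 132 ± 5.3 CPM with vehicle (log2 0.64 ± 0.06, adjusted p = 4.51e-06). TNFSF15, a ligand of the TNF family, fell to 0.284 ± 0.094 CPM with dexamethasone, against 0.903 ± 0.18 CPM with vehicle (log2 -1.67 ± 0.26, adjusted p = 0.000496). TNFRSF10C, a TRAIL decoy receptor gene, fell to 0.641 ± 0.13 CPM with dexamethasone, against 1.23 ± 0.16 CPM with vehicle (adjusted p = 0.0189). The TNFRSF10C call ended without dexamethasone 1, vehicle 1 or vehicle 2 of that line (adjusted p = 0.0598 to 0.0907) and without both libraries that stood apart (adjusted p = 0.0803), and the count of genes that fell was 4 without dexamethasone 1 or vehicle 2.

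Of 14 adaptors, kinases and ubiquitin enzymes, 2 passed in HCC70, both lower (14.3% of the list against 3.96% of all genes; median -0.042). In MDA-MB-231, 1 rose and 4 fell (35.7% against 14.6% of all genes; median -0.23). There, 2 fell without dexamethasone library 3 or vehicle library 2. Without the 2 libraries that stood apart 5 passed in HCC70, 2 higher and 3 lower. That fit called 3867 genes in place of 1114. With only the HCC70 groups fitted, 7 passed, 2 higher and 5 lower, in a fit that called 4828 genes. TNFAIP3 encodes A20, an enzyme that restrains NF-kB signalling. It averaged 2.42 ± 0.26 CPM with dexamethasone and 3.18 ± 0.10 CPM with vehicle in HCC70 (log2 -0.40 ± 0.1, adjusted p = 0.0484); with the correction for GC content and length it did not pass (adjusted p = 0.0661). In MDA-MB-231 it averaged 12.3 ± 1.2 CPM with dexamethasone and 7.04 ± 0.36 CPM with vehicle (log2 0.80 ± 0.094, adjusted p = 3.94e-05). MAP3K14, the kinase that starts the non-canonical NF-kB pathway and is marked for degradation by the cIAP complex, fell in MDA-MB-231 to 47.9 ± 6.4 CPM with dexamethasone, against 78.4 ± 10 CPM with vehicle (adjusted p = 0.000247). FADD, the adaptor between death receptors and caspases, fell there to 42.8 ± 2.4 CPM with dexamethasone, against 54.8 ± 5.2 CPM with vehicle (adjusted p = 0.00294). The FADD call ended when only the MDA-MB-231 groups were fitted (adjusted p = 0.0519). In that fit 1 gene of this list rose and 1 fell. The adaptor gene TRAF5 fell in HCC70 to 20.6 ± 0.67 CPM with dexamethasone, against 25.9 ± 1.3 CPM with vehicle (adjusted p = 0.0271).

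Of 12 genes for caspases and their activators, 1 rose and 1 fell in HCC70 (16.7% of the list against 3.96% of all genes; median -0.08). In MDA-MB-231, 2 passed, both lower, and that share of 16.7% is about the 14.6% of all genes (median -0.004). DFFB, the nuclease that cuts DNA in apoptosis, had 6.83 ± 0.16 CPM with dexamethasone and 5.28 ± 0.20 CPM with vehicle in HCC70 (adjusted p = 0.0265). It had 3.19 ± 0.33 CPM with dexamethasone and 3.94 ± 0.095 CPM with vehicle in MDA-MB-231 (adjusted p = 0.0345). The executioner caspase gene CASP6 fell in HCC70 to 11.8 ± 0.67 CPM with dexamethasone, against 14.8 ± 0.81 CPM with vehicle (log2 -0.34, adjusted p = 0.0431). With the correction for GC content and length its log2 fold change was -0.20 and did not pass (adjusted p = 0.18). Of 6 other IAP family genes and IAP antagonists, 1 fell in HCC70 (16.7% against 3.96% of all genes) and 0 passed in MDA-MB-231 by edgeR, where 1 had an unadjusted p under 0.05 and DESeq2 and limma voom called 0 (medians -0.085 in HCC70 and 0.041 in MDA-MB-231). In MDA-MB-231, 1 fell with the correction for GC content and length, without vehicle library 1, and without both libraries that stood apart. XAF1, which binds XIAP and opposes it, had 8.53 ± 0.49 CPM with dexamethasone and 11.7 ± 1.1 CPM with vehicle in HCC70 (adjusted p = 0.0235). The HCC70 calls of TNFAIP3, TRAF5, DFFB, CASP6 and XAF1 ended when single libraries were left out, with adjusted p of 0.051 to 0.2. For TRAF5, DFFB and CASP6 this held for each of the 6 HCC70 libraries (for CASP6 also MDA-MB-231 vehicle 2), for XAF1 for all but vehicle 3, and for TNFAIP3 for all but dexamethasone 1 and also for MDA-MB-231 dexamethasone 1 and 3 and vehicle 2. In MDA-MB-231 the DFFB call ended without any of the 3 HCC70 dexamethasone libraries, MDA-MB-231 dexamethasone 2 or 3, or any of the 3 MDA-MB-231 vehicle libraries (adjusted p = 0.0511 to 0.157), and without both libraries that stood apart (adjusted p = 0.0572).

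**Figure D4:**
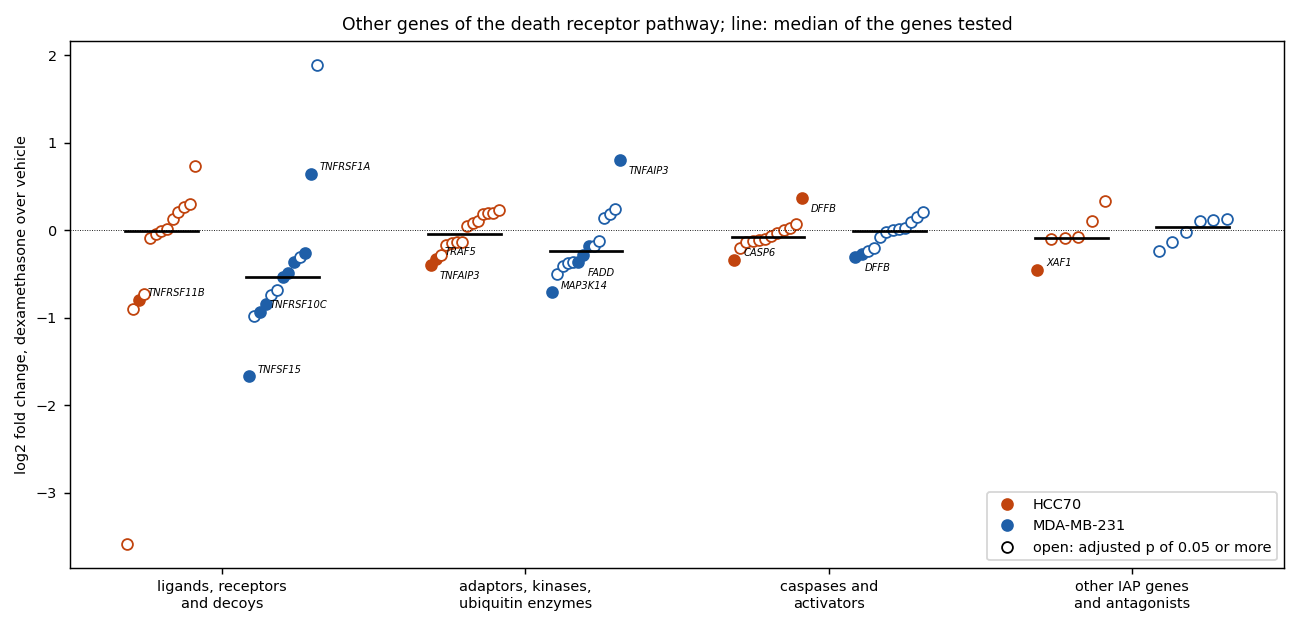
Log2 fold change of dexamethasone over vehicle for the genes of the 4 pathway lists, in HCC70 and MDA-MB-231, ordered by value within each column; filled points passed at an adjusted p under 0.05 and black lines are medians. In the column of ligands, receptors and decoys the median is -0.011 in HCC70 and -0.53 in MDA-MB-231.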

How the data were processed

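The authors deposited whole-number read counts per gene, not scaled between libraries, for 12 libraries of polyA-selected, transposase-made, non-stranded RNA libraries read as paired ends of 50 bases, per the labels' protocols. The submitters' processing notes name the build hg19 and the tools TopHat 1.4.1, bedtools and Cufflinks 1.3.0; which tool made the counts is not given in the sources used here. All 12 columns matched a library, and 11496 of 51838 genes had no count anywhere. No pair of libraries was alike: at least 32152 genes differed.

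Counts were filtered with filterByExpr (minimum count 10) and scaled by TMM, and edgeR 4.0.16 (R 4.3.3) fitted a robust quasi-likelihood model to the 12 libraries, with 1 mean for each of the 4 groups and 8 residual degrees of freedom. Two-sided tests compared dexamethasone with vehicle within a line, the lines in vehicle, and the responses between lines. P-values were adjusted over 28141 genes with a threshold of 0.05. The SE of a log2 fold change is its absolute value over the square root of the F statistic of its test. Intervals of 95% were built from that SE and the t distribution. A single count was 0.00766 to 0.00909 CPM. The scripts were tested on simulated data. The members and lists were chosen with earlier results of these data known. Beside the 10 genes, up to 2 passing genes per direction with the largest fold were named from each list and line, and 3 genes most like BIRC3 and TNFSF10 (log2 CPM with a prior count of 2). A gene that this rule takes is not reported here. Exon lengths, GC content and overlaps are from GENCODE on GRCh38, matched by gene, and promoter windows from RefSeq (8 of 10 genes matched; TNFRSF10A and TNFRSF10B were not searched); no coordinates were converted.

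The 24 alternatives were DESeq2 1.42.0 size factors, upper quartile and library size scaling, a strict filter (at least 5 CPM in 3 libraries) and none, limma 3.58.1 voom, the DESeq2 Wald test, the replicate number as a block, only the groups compared, a GC and length offset with and without the block, leaving out the MDA-MB-231 libraries vehicle 1 and dexamethasone 2, and leaving out each library.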

Additional observations from a re-analysis of the deposited data

Results flagged for a closer look

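The interaction term between line and dexamethasone passed for 7 of the 10 genes (edgeR quasi-likelihood test, Benjamini-Hochberg adjusted). All values are log2 responses in HCC70 minus those in MDA-MB-231. BIRC3 differed by -1.27 (adjusted p = 3.56e-06), as it rose in both lines and by more in MDA-MB-231. CFLAR differed by -1.01 (adjusted p = 7.27e-07), also with rises in both lines. TNFSF10 differed by 1.03 (adjusted p = 9.64e-06), with falls in both lines. TNFRSF10B differed by 1.00 (adjusted p = 6.91e-07), with a rise in HCC70 and a fall in MDA-MB-231. TRAF1 differed by 1.28 (adjusted p = 4.63e-05), TNFRSF10A by 0.476 (adjusted p = 0.00619) and TRAF2 by 0.574 (adjusted p = 0.026). The TRAF2 difference did not pass in 8 of 23 alternatives and was 0.17 with the GC and length offset (adjusted p = 0.162).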

How the results depend on the processing

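The number of the 10 genes that passed was 4 to 6 in HCC70, 6 to 7 in MDA-MB-231, 9 in the vehicle comparison and 6 to 8 for the difference of the responses over all alternatives. Of the tests of single genes among the 10, 926 kept their direction and side of the threshold, 18 lost the call, 1 gained it and 5 changed sign, none of the 5 in a call. Those were CFLAR in the vehicle comparison (7.94e-05 with the offset and replicate block, and -0.0557 to 0.00426 with single libraries left out), FAS in HCC70 (-0.0134 with library size only) and TRAF2 in HCC70 (-0.0642 with the GC and length offset, -0.0661 with the block added). For the named list genes 265 stayed and 68 lost the call; the cause was not tested. Counts over all genes moved more. In HCC70, 1114 genes passed; the count was 1679 with the DESeq2 Wald test, 4828 with only the groups compared, 1852 with the offset, 3867 without MDA-MB-231 vehicle 1 and dexamethasone 2, and 510 (HCC70 vehicle 1) to 1775 (MDA-MB-231 vehicle 1) with single libraries left out. In MDA-MB-231, 4110 passed, 2116 with only the groups compared, and 2424 (dexamethasone 1) to 6452 (dexamethasone 2) with single libraries left out. In vehicle, 22294 passed, and 11980 under the strict filter, which tests fewer genes. For the difference 3391 passed, 6206 without the 2 libraries, and 1614 (HCC70 vehicle 1) to 6259 (MDA-MB-231 dexamethasone 2) with single libraries left out. With library size only, 42% of the HCC70 calls and 41.4% of those for the difference were higher, against 64.5% and 57.8% with TMM, and the median of all genes was -0.098 and -0.125; under the strict filter these shares were 51.8% and 46.1%, and with the offset 68.3% for the difference. Scaling by library size put the vehicle median at -0.108 and upper quartile scaling at -0.125.

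For libraries with the same replicate number, deviations from the group means had correlations across genes of -0.233, 0.118 and 0.011 in HCC70. In MDA-MB-231 these were -0.634, -0.261 and 0.33. The values show no common pairing by number. They rest on means of 3 libraries, so they cannot tell whether equal numbers share a culture or day. How these deviations from group means follow GC content was not computed. With the replicate number as a block, 695 genes passed in HCC70 and 2059 for the difference. The HCC70 calls of CFLAR (adjusted p = 0.0582), TRAF5 (0.0606), XAF1 (0.0622), DFFB (0.0671), CASP6 (0.0741) and TNFAIP3 (0.113) ended in that fit. So did the DFFB call in MDA-MB-231 (adjusted p = 0.0664). Intervals cover the spread between libraries, and a single count covers counting error only.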
